A study of Arabidopsis thaliana with 6 samples.

Results

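The 200 genes described here were chosen from their own array values, as the genes that differed most between the replicate numbers of the experiment while compound and solvent stayed close together. For each gene the compound and solvent arrays of a replicate number were averaged. The range, the highest of the 3 averages minus the lowest, ranked the genes. A gene could be chosen if its probe set was annotated to 1 gene, its mean over the 6 arrays was at least 5 on the log2 scale, and its mean compound minus solvent difference was below 0.3 in size. Of 13513 probe sets annotated to 1 gene, 7151 reached that mean and 6283 also met the limit on the difference. The 200 with the widest range belonged to 200 different genes, of which 32 carried a gene symbol of their own and 168 only a locus name.

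Transcript levels were measured on Affymetrix ATH1 arrays in whole seedlings of Arabidopsis thaliana Col-0, grown on half-strength Murashige and Skoog medium in well plates. Seedlings 7 days old received 5 µM of an amide that joins 2-(2,4-dichlorophenoxy)propanoic acid to a methoxyaniline bearing an isobutyrylamino group, called the compound here, or an equal amount of its solvent dimethyl sulfoxide (DMSO), for 24 h. Each group held 3 biological replicates numbered 1 to 3, and each sample pooled the seedlings of 24 wells sown with 5 seeds each, so a value averages many plants and organs. The labels name no genetic change in either group, and they do not say whether arrays of the same number shared a plate, a day or an RNA batch.

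Seedlings adjust many transcripts to conditions outside a planned treatment. Genes of cell expansion respond to growth rate and touch, genes of starch and amino acid breakdown follow the carbon supply and the time of day, and genes of defence follow microbes and wounding. In RNA from whole seedlings, fewer cells of a type and less RNA per cell cannot be told apart.

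The array medians lay between 5.75 and 5.79 in all 6 arrays. The root marker PYK10, a beta-glucosidase abundant in roots, lay between 12.59 and 13.00, and the plastid-encoded photosynthesis gene atpB lay between 13.61 and 13.82. RBCS1A and the listed seed storage and cell division genes could not be found by name, so they were not analysed here. Signal from 3' minus 5' actin probe sets, a measure of RNA and labelling quality, was 2.33 and 2.47 in the DMSO and compound arrays of replicate 1 and 2.719 to 2.773 in the other 4 arrays. The 25S rRNA probe set read 11.46 and 11.33 in replicate 1, 11.58 and 11.66 in replicate 2, and 11.98 and 11.88 in replicate 3. The median of the poly-A spikes, RNAs added before labelling, was 5.99 and 5.86 in replicate 1, 6.45 and 6.10 in replicate 2, and 6.21 and 5.97 in replicate 3. The median of the hybridisation spikes was 8.79 and 8.83 in replicate 2 and 8.87 to 8.95 in the other arrays. In both groups the actin signal, the 25S rRNA and the poly-A spikes were lowest in replicate 1. The poly-A spikes also differed between the groups, higher in the DMSO than in the compound array of each number. The part of these controls in the members' values was not tested.

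The range of the 200 members ran from 1.02 to 3.45 on the log2 scale, a fold of 2.03 to 10.9 between the highest and the lowest replicate average. The median was 1.23, against 0.32 over the 6283 genes that could have been chosen. A range of at least 2 was seen in 14 members and of at least 1.5 in 53. The mean levels ran from 5.05 to 11.93 with a median of 6.95, against 7.30 over the genes that could have been chosen. Of the members, 0 had an array at or below the lower quartile of that array, and 11 came within 0.5 of it. At the lower edge, AT5G63380 had a range of 1.0209 and ALDH7B4 one of 1.0208, while AT5G23460 at 1.0195 and Cpn60beta4, a subunit of a plastid chaperonin, at 1.0182 stayed outside.

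Because the range and the difference chose the genes, the following counts describe the choice and test nothing. In limma's F test over replicate numbers, 200 of the 200 members had a Benjamini-Hochberg adjusted p below 0.05, against 23.2% of all 22746 probe sets tested. For compound against DMSO, limma called 0 of the 200 at that threshold, against 0.343% of all probe sets. With the replicate number as a block it called 0 members, against 3.8% of all probe sets. At an unadjusted p below 0.05, limma counted 0 members without the block and 30 with it. Those 30 were 15.0% of the members, against 16.0% of all probe sets. The compound minus DMSO difference of the members ran from -0.30 to 0.30 with a median of 0.01, and it was above 0 in 105 of them.

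The rule also fixed that the treatment difference had a large error without the block, since that error holds the spread between replicate numbers. Its standard error without the block had a median of 0.43 on the log2 scale, against 0.14 over the genes that could have been chosen. With the block the median was 0.097, against 0.082. The 3 compound minus DMSO differences of the members had a median SD of 0.21, against 0.13 over the genes that could have been chosen. A choice on wide ranges can favour genes with noisier values, so nothing is read from this.

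A wide range of the averages and a small difference between groups favour a like order of replicate numbers in both groups, so these counts too describe the choice. The order was the same in both groups in 162 members (81.0%), against 47.9% of the genes that could have been chosen. The highest replicate number was shared in 186 members and the lowest in 176, against 4180 and 4288 of the 6283. In 200 of the 200 members both arrays of 1 replicate number lay above or below the other 4. Such a separation therefore sets no gene named below apart from other members, and its share among the 6283 was not counted. Within the 3 DMSO arrays alone the range of the members ran from 0.73 to 3.31, and within the 3 compound arrays from 0.58 to 3.70. A direction shared by all 3 compound minus DMSO differences was seen in 64 members (32.0%), against 36.7% of the genes that could have been chosen.

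**Figure D1:**
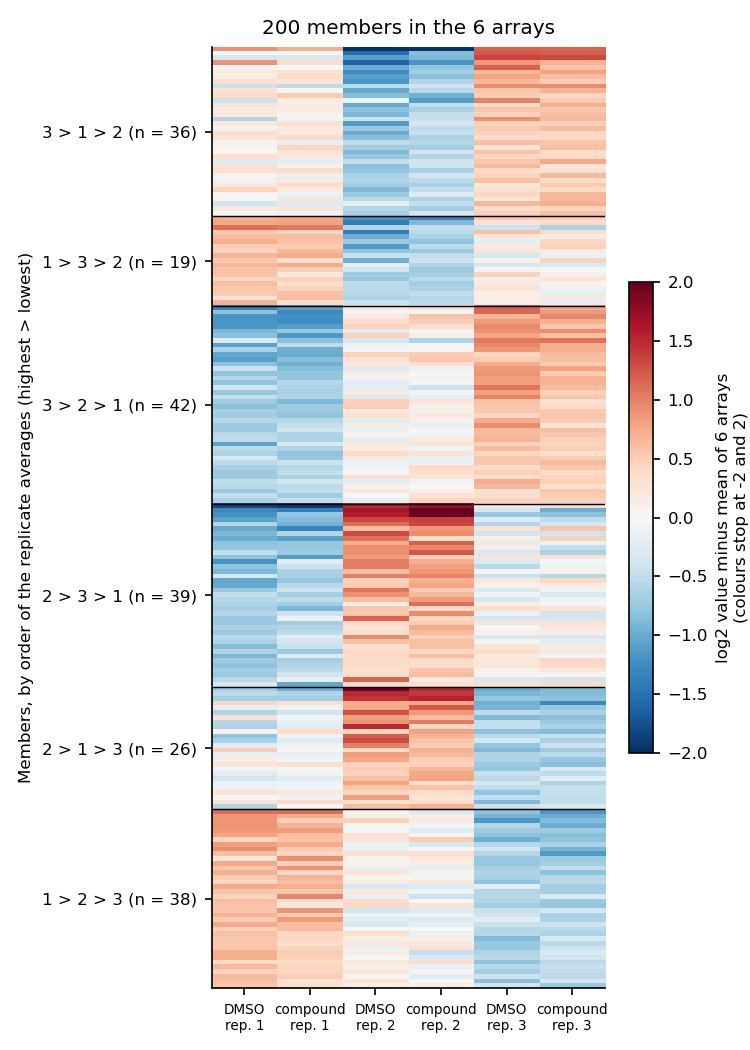
Each row is 1 of the 200 members and each column 1 array, coloured by the log2 value minus the gene's mean over the 6 arrays. Rows are grouped by the order of the 3 replicate averages, and in each group the DMSO and compound columns of a replicate number have like colours.

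A reading that the choice did not use was made by choosing genes on 1 group and measuring them in the other. The 200 genes with the widest range over the 3 DMSO arrays, with a DMSO mean of at least 5 and no limit on the difference, had a median range of 1.75 there. In the compound arrays the gap between the same highest and lowest numbers had a median of 1.45 and ran from -0.50 to 4.82. It kept its direction in 198 of the 200 (99.0%), against 86.6% of all 7125 genes with that DMSO mean. It was at least 1 in 143 (71.5%), against 4.41%, and the whole order of numbers was the same in 136 (68.0%), against 47.3%. The median DMSO range of all 7125 was 0.38, so fewer of them could reach a gap of 1.

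In the reverse reading, 200 genes chosen on the compound arrays had a median gap of 1.51 in the DMSO arrays, and 199 kept the direction. The gap was at least 1 in 166 of them (83.0%), against 6.06% of 7163 genes. Of the 200 members, 93 were among the genes chosen on DMSO alone and 84 among those chosen on compound alone. The direction reversed in few of the genes chosen on DMSO. WAG2, a protein kinase that acts on auxin transporters, had a gap of 1.81 in DMSO and -0.50 in compound arrays. For AT4G25790 these were 1.49 and -0.21. While 143 of the 200 kept a gap of at least 1, in some it nearly closed without reversing. Examples were GH3.3 with 2.82 in DMSO and 0.12 in compound arrays, EXPA8 with 2.02 and 0.32, and AT1G49960 with 1.52 and 0.08. The widest gap was that of AT5G03350, with 5.55 in DMSO and 4.82 in compound arrays.

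**Figure D2:**
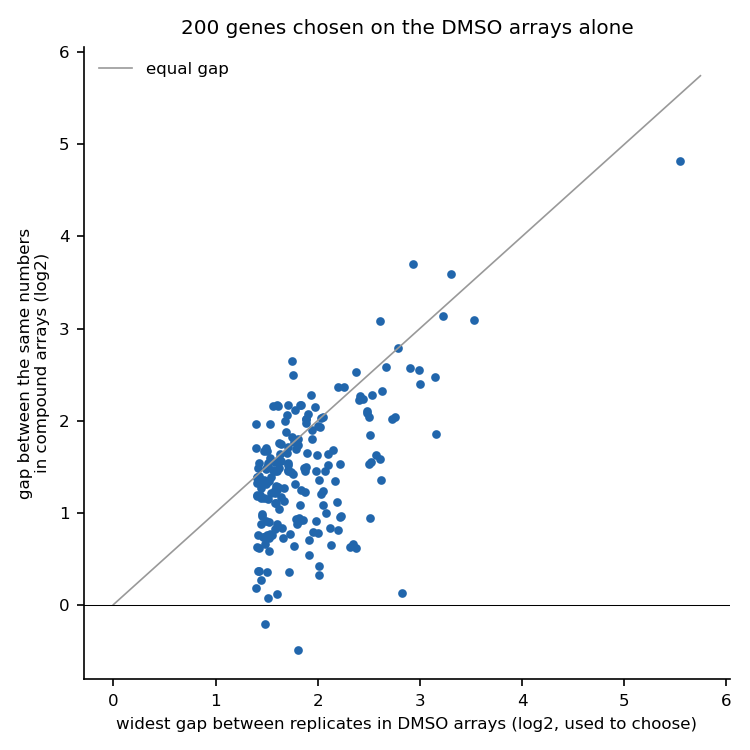
Each point is 1 of 200 genes chosen on the DMSO arrays, with its widest gap between DMSO replicates on the x axis and the gap between the same replicate numbers in compound arrays on the y axis (both log2). All but 2 points lie above 0, and many lie near the line of equal gaps.

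The members did not form a single pattern, since each of the 6 possible orders of the replicate numbers held at least 19 of them. Replicate 3 was highest in 78 members (39.0%), replicate 2 in 65 (32.5%) and replicate 1 in 57 (28.5%). Among the genes that could have been chosen these shares were near, at 37.0%, 33.3% and 29.7%. Replicate 1 was lowest in 81 (40.5%), replicate 3 in 64 (32.0%) and replicate 2 in 55 (27.5%), against 38.0%, 27.2% and 34.8%. The order 3 above 2 above 1 held 42 members (21.0%), against 19.2% of the genes that could have been chosen. Its 3 widest members were AT2G41640, AT4G16563 and AT4G24110, with ranges of 2.18, 2.06 and 2.00. AT2G41640 read 5.16, 6.70 and 7.67 in DMSO and 5.41, 6.80 and 7.26 in compound arrays. Which order held most members changed with the limits of the rule and with the arrays used. The order 1 above 2 above 3 held 38 (19.0%), against 12.7%, and the order 1 above 3 above 2 held 19 (9.5%), against 17.0%.

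**Figure D3:**
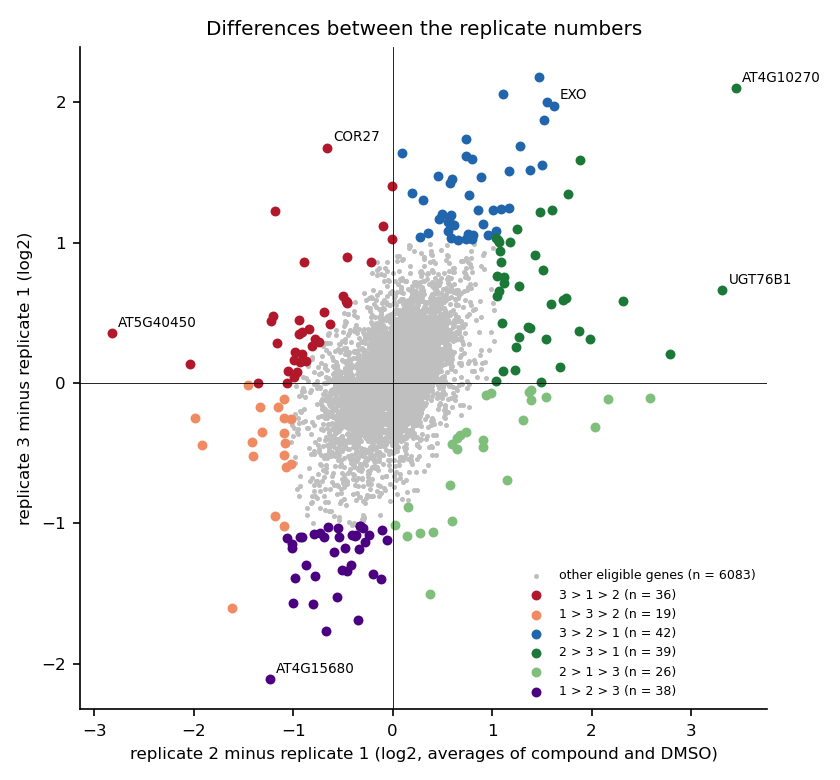
Each point is a gene, with replicate 2 minus replicate 1 on the x axis and replicate 3 minus replicate 1 on the y axis (log2, averages of compound and DMSO). Members, coloured by order from highest to lowest, ring the 6083 other genes in every direction, and the points farthest from the centre are highest or lowest in replicate 2.

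In 7 of the 10 widest members replicate 2 was highest, and in the other 3 it was lowest. AT4G10270 read 4.41, 7.72 and 6.44 in DMSO replicates 1, 2 and 3 and 4.36, 7.95 and 6.53 in the compound replicates. Its range was 3.45, a fold of 10.9, beside a compound minus DMSO difference of 0.09 ± 0.08 (standard error with the replicate block). Both arrays of replicate 1 were lowest and both of replicate 2 highest, with no overlap between any 2 numbers. The files give no symbol for this gene.

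UGT76B1, a glucosyltransferase that modifies isoleucic acid and tunes salicylate and jasmonate defence, read 5.25, 8.18 and 6.20 in DMSO and 5.17, 8.87 and 5.54 in compound arrays. Both arrays of replicate 2 lay above the other 4, and the range was 3.31. AT2G44370 (range 2.79), AT3G18250 (2.70), AT2G16660 (2.34), AT5G66985 (2.32) and AT4G01700 (2.28) were also highest in replicate 2. In AT3G18250 the DMSO arrays read 4.99, 7.70 and 4.70 and the compound arrays 4.72, 7.20 and 4.80. These genes have no symbol in the files.

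Other members high in replicate 2 were less wide. ECS1 read 9.22, 10.92 and 9.21 in DMSO and 8.86, 11.13 and 9.48 in compound arrays. NANA, an aspartic protease of the chloroplast, read 7.61, 9.44 and 7.89 in DMSO and 7.98, 9.23 and 8.32 in compound arrays. CHI, a putative chitinase, read 4.54, 6.01 and 4.76 in DMSO and 4.82, 5.56 and 4.76 in compound arrays. In all 3 genes both arrays of replicate 2 lay above the other 4. HMT-1, a homocysteine methyltransferase, had a range of 1.05. In CML23, a calmodulin-like calcium sensor, replicate 1 was low, at 5.65 in DMSO and 4.99 in compound arrays, and replicates 2 and 3 overlapped, at 6.38 and 6.32 in DMSO and 6.33 and 6.39 in compound arrays.

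Among members with a symbol that belong to cell expansion and the cell wall, EXO, EXLA1, EXLA2 and THE1 were lowest in replicate 1 and highest in replicate 3. Members with only a locus name were not sorted by function, so no pattern of all wall genes is read from these. EXO, an extracellular protein that promotes cell expansion, read 10.77, 12.29 and 12.78 in DMSO and 10.70, 12.42 and 12.63 in compound arrays. Its range of 1.98 is a fold of 3.93. EXLA1, an expansin-like wall protein, read 10.67, 11.26 and 12.16 in DMSO and 10.33, 11.34 and 12.03 in compound arrays. EXLA2, of the same family, read 7.01, 8.05 and 8.57 in DMSO and 6.88, 8.18 and 8.34 in compound arrays. In all 3 genes the order was 3 above 2 above 1 in both groups. The other measured gene of that family with a mean of at least 5, EXLB1, had a replicate range of 0.25 and a compound minus DMSO difference of 1.08, so it could not be a member.

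THE1, a receptor kinase that monitors the integrity of the cell wall, followed the order of EXO. It read 7.70, 8.56 and 8.90 in DMSO and 7.62, 8.47 and 8.88 in compound arrays, and its treatment difference was -0.06 ± 0.07 (standard error with the block). HCT, an enzyme of lignin synthesis, did not follow that order. It read 9.39, 10.005 and 8.64 in DMSO and 9.19, 9.73 and 8.48 in compound arrays, highest in replicate 2 and lowest in replicate 3.

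IVD and MCCB, which act in leucine breakdown in mitochondria, were also highest in replicate 3. IVD, the enzyme isovaleryl-CoA dehydrogenase, read 9.66, 10.20 and 11.26 in DMSO and 9.86, 10.48 and 11.11 in compound arrays. MCCB, a subunit of methylcrotonyl-CoA carboxylase, read 9.12, 9.31 and 10.57 in DMSO and 8.88, 9.09 and 10.15 in compound arrays. In both genes replicate 3 stood apart from the other 4 arrays.

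Of 10 genes listed for the breakdown of branched-chain amino acids, 5 were found by name. In limma's F test over replicate numbers, 4 of these 5 had an adjusted p below 0.05, against 23.2% of all probe sets. The list was written after values had been seen, and IVD and MCCB were called by construction, so nothing is read from this count. MCCA, the partner subunit of MCCB, read 10.52, 10.43 and 11.90 in DMSO and 10.04, 10.13 and 11.48 in compound arrays. Its range was 1.41, and its compound minus DMSO difference of -0.40 kept it out of the members. ETFQO, which passes electrons from this pathway to ubiquinone, had a range of 0.82 with replicate 3 highest, and D2HGDH one of 0.30.

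Members of pyruvate, aldehyde and starch metabolism divided between replicates. PPDK, pyruvate orthophosphate dikinase, read 10.02, 10.20 and 11.47 in DMSO and 9.88, 10.31 and 11.04 in compound arrays, with replicate 3 apart. ALDH7B4, a stress-responsive aldehyde dehydrogenase, read 9.91, 10.34 and 11.01 in DMSO and 10.08, 10.96 and 11.02 in compound arrays. Replicate 1 was lowest in both genes.

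PWD, a kinase that phosphorylates starch for its breakdown, read 9.35, 8.45 and 9.37 in DMSO and 9.52, 8.50 and 9.65 in compound arrays. DPE1, a plastid enzyme that processes the sugars released from starch, read 8.04, 7.46 and 8.24 in DMSO and 8.24, 7.36 and 8.64 in compound arrays. These were lowest in replicate 2, with replicates 1 and 3 near each other. They were the only genes found by name from a list of 14 for starch breakdown, also written after values had been seen.

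**Figure D4:**
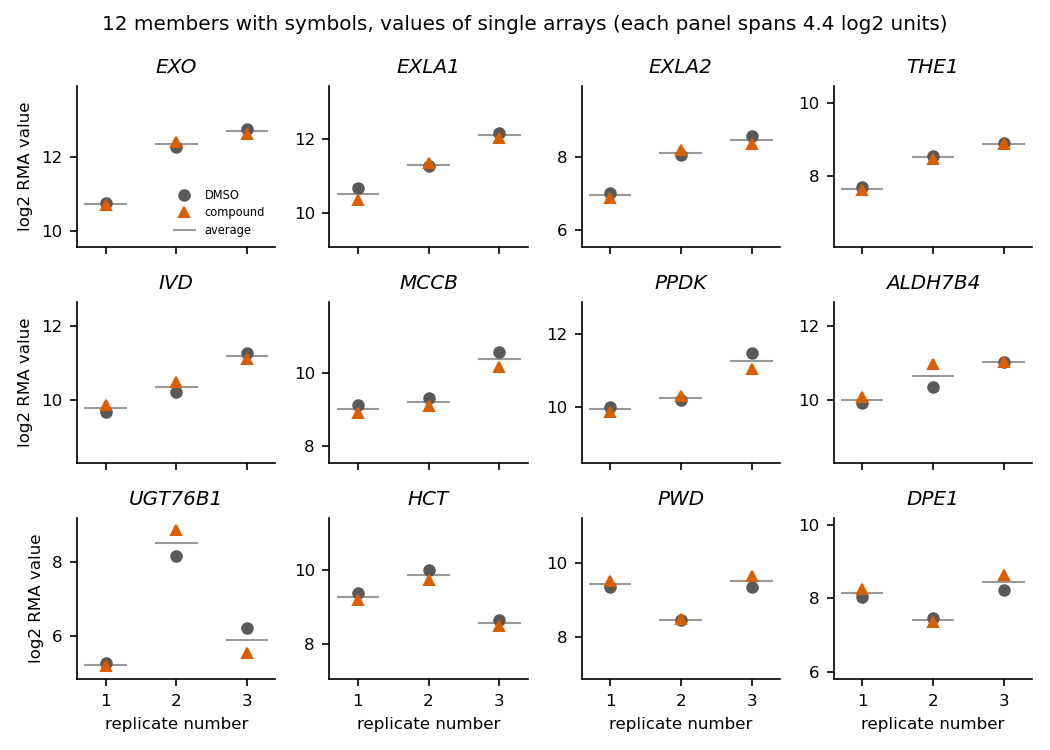
Single-array log2 values of 12 members with symbols, by replicate number, with circles for DMSO, triangles for compound and a short line for their average. In each panel circle and triangle of a number lie closer together than the highest and lowest averages.

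COR27, a cold-regulated gene linked to the circadian clock, read 8.68, 7.94 and 10.39 in DMSO and 8.71, 8.13 and 10.36 in compound arrays. Its range of 2.34 is a fold of 5.05, and the treatment difference was 0.06 ± 0.08 (standard error with the block). Replicate 3 was highest and replicate 2 lowest in both groups. GI, the only listed clock gene found by name, had a range of 1.00 and fell just outside the members. It read 9.34, 8.38 and 9.05 in DMSO and 9.33, 8.29 and 8.87 in compound arrays. Replicate 2 was lowest in GI too, but replicate 1 was highest.

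LTI30, a cold- and drought-responsive dehydrin, had a range of 1.42 with replicate 1 highest, and its difference of -0.53 kept it out. Of 303 entries in 23 lists for the clock, cold, touch, hormones, immunity, nutrients, sugar starvation and other conditions, 36 could be measured by name and 17 of these had a mean of at least 5. EXO, on the sugar starvation list, was the only member among them. The lists therefore say little about the 168 members without a symbol.

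Among defence and conjugation genes the patterns differed by gene. UGT74D1, a glucosyltransferase that can act on auxins, read 7.93, 7.65 and 6.76 in DMSO and 7.76, 7.65 and 6.20 in compound arrays, lowest in replicate 3. UGT73B1, of the same superfamily, read 8.29, 7.22 and 7.88 in DMSO and 8.36, 7.29 and 7.58 in compound arrays, lowest in replicate 2. With UGT76B1, highest in replicate 2, the 3 members among 27 genes with a UGT symbol and a mean of at least 5 thus had 3 different orders. The 27 had a median range of 0.42.

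The glutamate receptor-like channels GLR2.7 and GLR3.5 were both lowest in replicate 3. GLR2.7 read 6.66, 7.04 and 5.78 in DMSO and 6.96, 7.39 and 5.72 in compound arrays, and GLR3.5 read 6.42, 5.71 and 5.21 in DMSO and 6.76, 5.72 and 5.37 in compound arrays. Replicate 1 was highest in GLR3.5 and replicate 2 in GLR2.7. GLR3.3, not a member, was also lowest in replicate 3, with a range of 0.86. GLR3.6, the other gene with a GLR symbol and a mean of at least 5, was lowest in replicate 2 in both groups, with a range of 0.42.

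VTC4, an enzyme of ascorbate synthesis, and GTR1, a glucosinolate transporter, were low in replicate 3 as well. VTC4 read 8.41, 8.08 and 7.14 in DMSO and 8.23, 8.08 and 7.33 in compound arrays. GTR1 read 6.33, 6.48 and 5.26 in DMSO and 6.28, 6.44 and 5.59 in compound arrays. In both genes the 2 arrays of replicate 3 lay below all others.

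The serine carboxypeptidase-like gene SCPL34 was high in replicate 3 alone, at 9.41, 9.32 and 10.77 in DMSO and 9.32, 9.42 and 10.77 in compound arrays. Its relative scpl46 was highest in replicate 2 and lowest in replicate 3, with a range of 1.12. TRI, a tropinone reductase, was the member with the largest treatment standard error with the block, 0.26. It read 6.97, 7.30 and 8.40 in DMSO and 7.55, 6.32 and 7.92 in compound arrays, so replicates 1 and 2 changed places between the groups. The transcription regulators MED19A, a Mediator subunit, and GT2, a trihelix factor, had ranges of 1.19 and 1.02 and were lowest in replicate 2.

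A further set of 38 members was highest in replicate 1 and lowest in replicate 3. AT4G15680 read 10.03, 8.97 and 8.09 in DMSO and 10.04, 8.63 and 7.76 in compound arrays, a range of 2.11. Its neighbours AT4G15660, AT4G15690 and AT4G15700 were members too, with ranges of 1.58, 1.39 and 1.57, and all 4 had the order 1 above 2 above 3. Similar sequences among neighbouring genes can share probes, and this was not tested. AT4G16880 read 7.78, 7.04 and 5.97 in DMSO and 7.64, 7.04 and 5.91 in compound arrays, and AT5G45950 had a range of 1.69 in the same order.

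Members at most 3 positions apart among the protein-coding genes formed 9 groups of 20 genes in all. Besides the group on chromosome 4, only AT2G02160 and AT2G02170 shared 1 order throughout. DPE1 and its neighbour AT5G64850 had opposite ends, since replicate 2 was lowest in the former and highest in the latter. By chromosome, the members' shares stood beside those of the genes that could have been chosen at 25.5% against 26.0% on chromosome 1, 20.0% against 14.6% on 2, 19.0% against 20.1% on 3, 15.5% against 14.4% on 4 and 19.0% against 24.0% on 5.

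The plastid genome gave 2 members, rps3 and rps19, which encode proteins of the small subunit of the plastid ribosome. The gene rps19 read 12.15, 10.62 and 11.70 in DMSO and 11.94, 11.18 and 12.05 in compound arrays. For rps3 the DMSO arrays read 12.06, 10.74 and 11.96 and the compound arrays 11.81, 11.14 and 11.997. In both genes the arrays of replicate 2 were the lowest of their group.

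These genes lie in a run of ribosomal protein genes of the plastid genome that is known in plants to be transcribed together. The run was examined after these values had been seen. In it 6 genes were measured with a single-gene probe set. Beside rps19 and rps3 these were rpl22, rpl16, rpl14 and rpl36, which encode proteins of the large subunit.

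In all 6 of them replicate 2 was lowest in DMSO and in compound arrays. Its average minus the mean of the other 4 arrays lay between -1.65 and -1.01 on the log2 scale. The gene rpl16 read 10.54, 7.92 and 9.61 in DMSO and 10.81, 9.45 and 10.29 in compound arrays, and its compound minus DMSO difference of 0.83 kept it out of the members despite a range of 1.99. Ranges in rpl14, rpl22 and rpl36 were 1.81, 1.64 and 1.26, with differences of 0.49, 0.36 and 0.33 that kept them out. Among the 55 other plastid-encoded genes with a mean of at least 5, replicate 2 minus the rest had a median of -0.16 and ran from -0.74 to 0.71. The low values of replicate 2 were deeper in the DMSO arrays than in the compound arrays in all 6 genes of the run, for example -2.16 against -1.09 in rpl16, a difference between the groups that was not tested.

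Gene length moved with the place of replicate 2. The gene span, from the start to the end of the gene in the NCBI table of assembly TAIR10.1, had a median of 2242 bases over the 200 members and 2363 over the genes that could have been chosen. In the 55 members lowest in replicate 2 the median was 3522 bases, and 24 of them (43.6%) spanned more than 4000. In the 65 members highest in replicate 2 the median was 1602 bases, and 2 of them (3.08%) spanned more than 4000. Among the genes that could have been chosen, 26.46% of those lowest in replicate 2 and 4.50% of those highest in it spanned more than 4000 bases.

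AT5G40450, with a span of 11239 bases, ranked 3 among the members, with a range of 3.18. It read 10.34, 7.37 and 10.60 in DMSO and 10.15, 7.47 and 10.60 in compound arrays, so replicate 2 alone was low. AT5G40340, of 4513 bases, read 5.71, 4.21 and 6.97 in DMSO and 5.76, 4.90 and 6.94 in compound arrays. NET1D, an actin-binding protein of the Networked family with a span of 6753 bases, read 5.21, 4.18 and 6.35 in DMSO and 5.16, 4.40 and 5.75 in compound arrays. Replicate 2 was lowest in both, and in both at least 1 of its values came within 0.5 of the lower quartile of its array. AT5G55660, of 4919 bases, was lowest in replicate 2 too. It read 7.54, 5.39 and 7.06 in DMSO and 7.57, 5.90 and 7.18 in compound arrays. Of the 11 members that span over 6000 bases, 9 were lowest in replicate 2, PWD among them, and PPDK was not.

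The relation ran through all genes with a mean of at least 5. Across the 260 genes that span over 6000 bases, the median of replicate 2 minus the mean of the other 2 averages was -0.32, and across the 446 under 1000 bases it was 0.10. In DMSO and compound arrays the former was -0.29 and -0.34. Across 7132 genes, which share the same 6 arrays and are not independent, Spearman's correlation of span with this deviation was -0.32 for replicate 2, 0.20 for replicate 1 and 0.14 for replicate 3. The 3 deviations of a gene sum to 0. Without the members it was -0.32 for replicate 2 over 6932 genes. The 3' minus 5' signal of GAPDH was 1.03 and 1.01 in the arrays of replicate 2 and 0.94 to 1.41 in the others, and that of ubiquitin 1.54 and 1.53 against 1.46 to 1.73. In both groups the poly-A spikes were highest and the hybridisation spikes lowest in replicate 2. The part of these controls in the length relation was not tested.

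**Figure D5:**
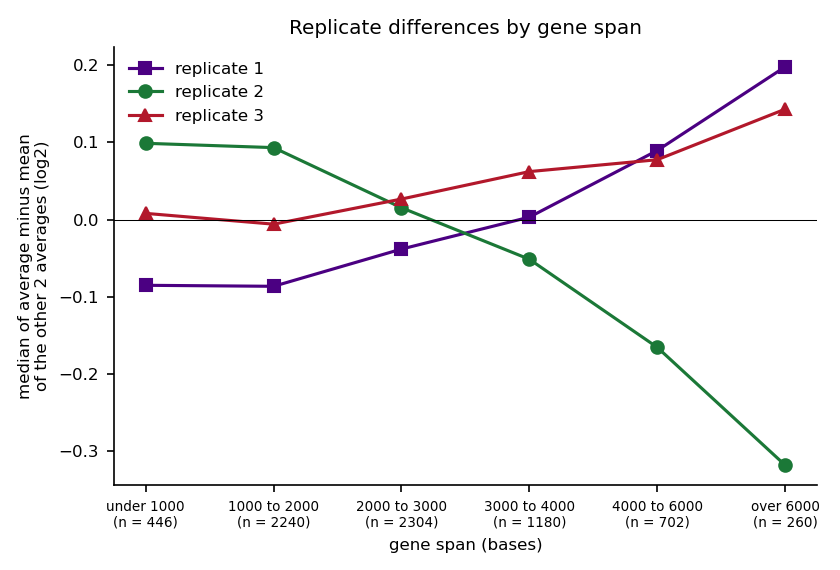
Median over genes in 6 classes of gene span (x axis, bases) of each replicate average minus the mean of the other 2 averages (y axis, log2). Replicate 2 goes from 0.10 in the shortest class to -0.32 in the longest, while replicates 1 and 3 go the opposite way.

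Short genes were not all high in replicate 2, since rps19 spans 279 bases and was lowest there. Members lowest in replicate 2 but of ordinary length included AT1G07050, of 1687 bases, at 7.55, 5.65 and 7.36 in DMSO and 7.61, 5.53 and 7.31 in compound arrays. AT1G70420, of 1277 bases, read 7.64, 5.93 and 6.10 in DMSO and 7.56, 6.05 and 5.90 in compound arrays, with replicate 1 high and the other 2 numbers overlapping.

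For 3 members a second probe set annotated to the same gene gave another measurement. For AT1G22330 it had a range of 1.46 and the member's order, 3 above 2 above 1, with a compound minus DMSO difference of -0.53. For AT1G60200 and AT2G31010 the second probe sets had ranges of 0.10 and 0.19 at mean levels of 4.45 and 5.11. The replicate difference of those 2 genes therefore appeared in 1 of their 2 probe sets. Among all 22746 probe sets tested, 11595 met the limits on mean and difference whatever their annotation. Of these, 429 had a range at least as wide as the narrowest member, and the members were 46.6% of them.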

How the data were processed

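The authors deposited log2 expression values per probe set, which they made by RMA, as the submitters' processing notes state. This method sets all arrays to common quantiles, so a shift of all transcripts would not show. Its software and version are not given in the sources used here, and depth does not apply; the number of arrays, 6, limits precision. The table held 22810 probe sets. The 64 controls were left out of the tests. Of the other 22746, 13513 were annotated to 1 gene, 503 to several and 8730 were unnamed here. Symbols and gene spans came from the NCBI gene table of TAIR10.1. Groups and replicate numbers came from the sample titles.

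Treatment and replicate number were tested with limma 3.58.1 in R 4.3.3 over all 22746 probe sets with Benjamini-Hochberg adjustment, and the code was tested on simulated data. Arrays of the same number deviated from their group means together, with correlations across probe sets of 0.727, 0.728 and 0.743, so the numbers, taken from the titles, were treated as pairing the samples. The main treatment fit had no block and so ignored this pairing. Standard errors given for single genes came from the fit with the block. Named were the 10 widest members, the 3 widest of each order with at least 10 members, and the 2 genes on each side of the lower edge. The rule's further part, on lists with at least 2 members, named none. All members with symbols, and the other genes named, were added after values were seen. The members and lists were chosen with earlier results of these data known. The alternatives changed the limits, the measure of spread, the centring, the block and the arrays used. No sequences are shown.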

Additional observations from a re-analysis of the deposited data

How the results depend on the processing

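The limma count for compound against DMSO, 78 of 22746 probe sets, was 865 with the replicate block (416 higher, 449 lower) and 491 with the number as a random block. Leaving out 1 array in turn gave 0 to 76. It was 1 without the DMSO array of replicate 3, 40 without that of replicate 2 and 0 without compound replicate 1, 2 or 3, where unadjusted p fell under 0.05 for 1022, 1049 and 1047. The count for the replicate number, 5284, was 5336 with a minimum mean of 5, 5069 after centring and 6038 with a variance trend. Leaving out 1 array gave 1889 to 4615. Of the 200 members, 157 were kept with a minimum mean of 6, 176 with none, 143 with a difference limit of 0.2, 138 with one of 0.5, 188 by SD and 195 after centring. With the range taken from DMSO arrays alone, but the limits still from all 6, 158 were kept, and with that from compound arrays 154. The order with most members, 3 above 2 above 1 with 42, gave way to 2 above 3 above 1 with no minimum mean (51 against 39), at a difference limit of 0.5 (49 against 42) and on the DMSO range (39 against 38), and to 3 above 1 above 2 at 0.2 (42 against 41). Leaving out 1 array kept 93 to 120, fewest without DMSO replicate 3. The 6 orders then held 18 to 49 (3 above 1 above 2), 17 to 40 (1 above 3 above 2), 30 to 60 (3 above 2 above 1), 22 to 52 (2 above 3 above 1), 13 to 39 (2 above 1 above 3) and 24 to 51 (1 above 2 above 3). The cause was not tested, but an array left out leaves its number with 1 array. In 450 recomputed ranges of the 50 named members, 0 moved by more than the SD of the replicate averages. That SD grows with the range itself, so this count says little. The recomputed ranges were 0.663 to 1.36 of the main ones, and the lowest, 0.70, was below the range of the narrowest member. The block called no member.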
